A study of Mus musculus with 8 samples.

Results

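Transcripts of 9 genes that write, copy, remove or read DNA methylation were followed in NS5 cells, a line of mouse neural stem cells, after exposure to ethanol in FGF2 or in TGF-beta1. The genes were Uhrf1, Hells, Dnmt1, Dnmt3a, Dnmt3b, Tet1, Tet2, Tet3 and Mbd2. Their members on the array were all probe sets whose annotation gave exactly 1 symbol and that symbol one of the 9, which made 24 of the 34945 probe sets with a single symbol, or 9 of 18193 genes. No member symbol stood on a probe set with several symbols, and all 24 probe sets passed the filter on low signals. Uhrf1 had 2 probe sets, Hells 3, Dnmt1 3, Dnmt3a 5, Dnmt3b 2, Tet1 4, Tet2 2, Tet3 1 and Mbd2 2.

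RNA came from 4 groups of 2 arrays. All cells were described as neural stem cells of brain at stage E11.5, were plated in FGF2 and EGF for 24 h, and then stood for 4 h without growth factors. For the next 48 h the FGF2 group received FGF2, the Ethanol and FGF2 group FGF2 with ethanol at 400 mg/dl, the TGF-beta1 group TGF-beta1, and the Ethanol and TGF-beta1 group TGF-beta1 with the same ethanol dose. FGF2 drives division of neural stem cells, and TGF-beta1 acts on Smad transcription factors. All groups share 1 cell line, and the labels do not say whether the arrays of a group came from separate cultures, so the errors measure only the spread between these arrays, which may be technical. The title of the series names cycling neural stem cells and alcohol use disorders as the subject, and the design asks how ethanol changed transcripts in each growth factor.

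In mammals DNA methylation is found mainly on cytosines of CpG dinucleotides. After replication the new strand lacks the mark. Uhrf1 binds such hemimethylated sites and recruits Dnmt1, the maintenance methyltransferase, which copies the mark onto the new strand. Hells, also known as Lsh, is a chromatin remodeller of the SNF2 family that gives the methyltransferases access to packed DNA. Dnmt3a and Dnmt3b set new marks, and both are known for roles in neural development. Tet1, Tet2 and Tet3 oxidise methylcytosine on the way to its removal, and Mbd2 binds methylated CpG as part of a repressor complex. Genes of DNA replication, Uhrf1, Hells and Dnmt1 among them, are known targets of the E2F factors, which act at the start of S phase.

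Because Uhrf1 and Hells are the members that passed the test below, the promoter stretches that hold an E2F-type motif are shown for them and for Dnmt1, their partner in maintenance. The motif was searched as the forms TTTCCCGC, TTTCGCGC, TTTGCCGC and TTTGGCGC on both strands. Each window was the 250 bases before a RefSeq start (GRCm38.p6), for the starts with a promoter sequence. The outer 5′ ends of Hells, Dnmt3a, Tet2 and Tet3 had no such window. Each line gives 30 bases, 5′ to 3′ on the gene's strand, with the match in capitals.
Uhrf1, chr17:56304117-56304146, plus strand: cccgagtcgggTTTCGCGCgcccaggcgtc
Hells, chr19:38930917-38930946, plus strand: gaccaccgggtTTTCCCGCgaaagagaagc
Dnmt1, chr9:20952824-20952853, minus strand: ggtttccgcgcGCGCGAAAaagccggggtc
The Uhrf1 match began 185 bases before a start, the Hells match 62 bases and the Dnmt1 match 219 bases. The capitals of Dnmt1 read as the reverse complement of TTTCGCGC. The other Uhrf1 start held no such form, but the shorter core TCCCGC stood 47 bases before it, in the following stretch.
Uhrf1, chr17:56303278-56303307, plus strand: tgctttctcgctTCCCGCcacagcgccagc
Of the 13 promoter windows of 8 members (all but Mbd2), 3 held one of the 8-letter forms, or 23.1%, against 611 of 32851 windows of all genes, or 1.86%. The shorter core, searched as GCGGGA and TCCCGC, which overlaps the first of the longer forms, stood in 46.2% of the member windows and in 16.9% of all. G and C made up 50.4% to 83.6% of the member windows, against a median of 52.4% over all windows. Only the Dnmt1 window at 50.4% lay below that median. A match is a description of letters, not a binding site. No window of Dnmt3a, Dnmt3b, Tet1, Tet2 or Tet3 held an 8-letter form. The shorter core was not particular to members that fell. It matched 5 times in the Tet2 window, 2 times in a Dnmt3a window and 1 time in the Tet3 window. The Hells window and the Dnmt1 window with a stretch shown held 1 match each. Apart from the Dnmt1 window shown, those of Dnmt1 held neither an 8-letter form nor the shorter core.

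The values are linear Affymetrix signals scaled to a trimmed mean of 500, with medians of 50.6 to 86.5 per array. Of 11 neural stem cell markers on the array, 10 lay above the filter on low signals, with summed signals of 72350 to 132900, as did 6 of 8 neuron, 6 of 6 astrocyte, 5 of 6 mesenchymal, 3 of 6 microglia, 2 of 5 pluripotent, 1 of 5 oligodendrocyte and 0 of 5 endothelial markers. The sums were 20910 to 38390 for astrocyte, 5579 to 14020 for neuron and 4889 to 10160 for oligodendrocyte markers. They were far lower for mesenchymal (265 to 2154), pluripotent (263 to 612), microglia (122 to 349) and endothelial markers (95.6 to 248). Single genes carried some sums: Cnp, at 4854 to 10050, made up nearly all of the oligodendrocyte sum, and Map2, at 5331 to 12180, most of the neuron sum. Mbp, Mog, Mag and Sox10 of the oligodendrocyte list and Rbfox3 and Stmn2 of the neuron list were below the filter. Nanog and Esrrb of the pluripotent list were above the filter and Pou5f1 below. Csf1r, Cd68 and Ptprc of the microglia list were above it and Aif1 below. Esrrb, at 29.2 to 57.5, and Csf1r, at 6.85 to 95.6, lay near the filter of 40.1. The astrocyte marker Gfap ranged from 61.9 to 8284 over the arrays. Both ethanol arrays labelled replicate 1 stand apart from their labels. Fn1, a TGF-beta target that codes for fibronectin, read 120 and 139 in the FGF2 group against 3015 and 4109 with TGF-beta1. In Ethanol and FGF2 it read 6828 on replicate 1 but 116 on replicate 2, whereas in Ethanol and TGF-beta1 it read 124 on replicate 1 but 8226 on replicate 2. Pmepa1, another TGF-beta target, gave the same order, with 8198 then 1057 in Ethanol and FGF2, against 1081 then 7454 in Ethanol and TGF-beta1. The arrays were kept in their labelled groups, called the arrays labelled replicate 1 here, and results are also given without both. The average of the ethanol effects over both growth factors is given first. Its fold change sets the same 4 arrays against the same 4 whichever of these 2 labels is right. Its error and p-value use the spread within the labelled groups, so they and the calls still rest on those labels. The comparisons within a growth factor and the interaction rest on them throughout. A fit with the 2 labels exchanged was not run.

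Ethanol went with lower signals of the maintenance factor Uhrf1 and of the remodeller Hells. In the average over both growth factors, 4 of the 24 member probe sets fell at an adjusted p under 0.05 and 0 rose (limma on log2(signal + 23.66), Benjamini-Hochberg adjustment over 27022 probe sets). The 4 were both Uhrf1 probe sets and 2 of 3 of Hells. Over all probe sets tested, 0.955% fell and 0.0999% rose. The median of the 24 log2 fold changes was −0.12 against 0.06 over all probe sets, with 13 below 0 and 11 above. In bulk RNA, fewer cells of a type and less RNA per cell cannot be told apart. Of the 24, 4 probe sets had all ethanol arrays below all others (Uhrf1 and Hells), a pattern seen in 3.39% of probe sets tested, 3 had them all above (all of Dnmt3a), a pattern seen in 3.17%, and 17 overlapped.

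**Figure D1:**
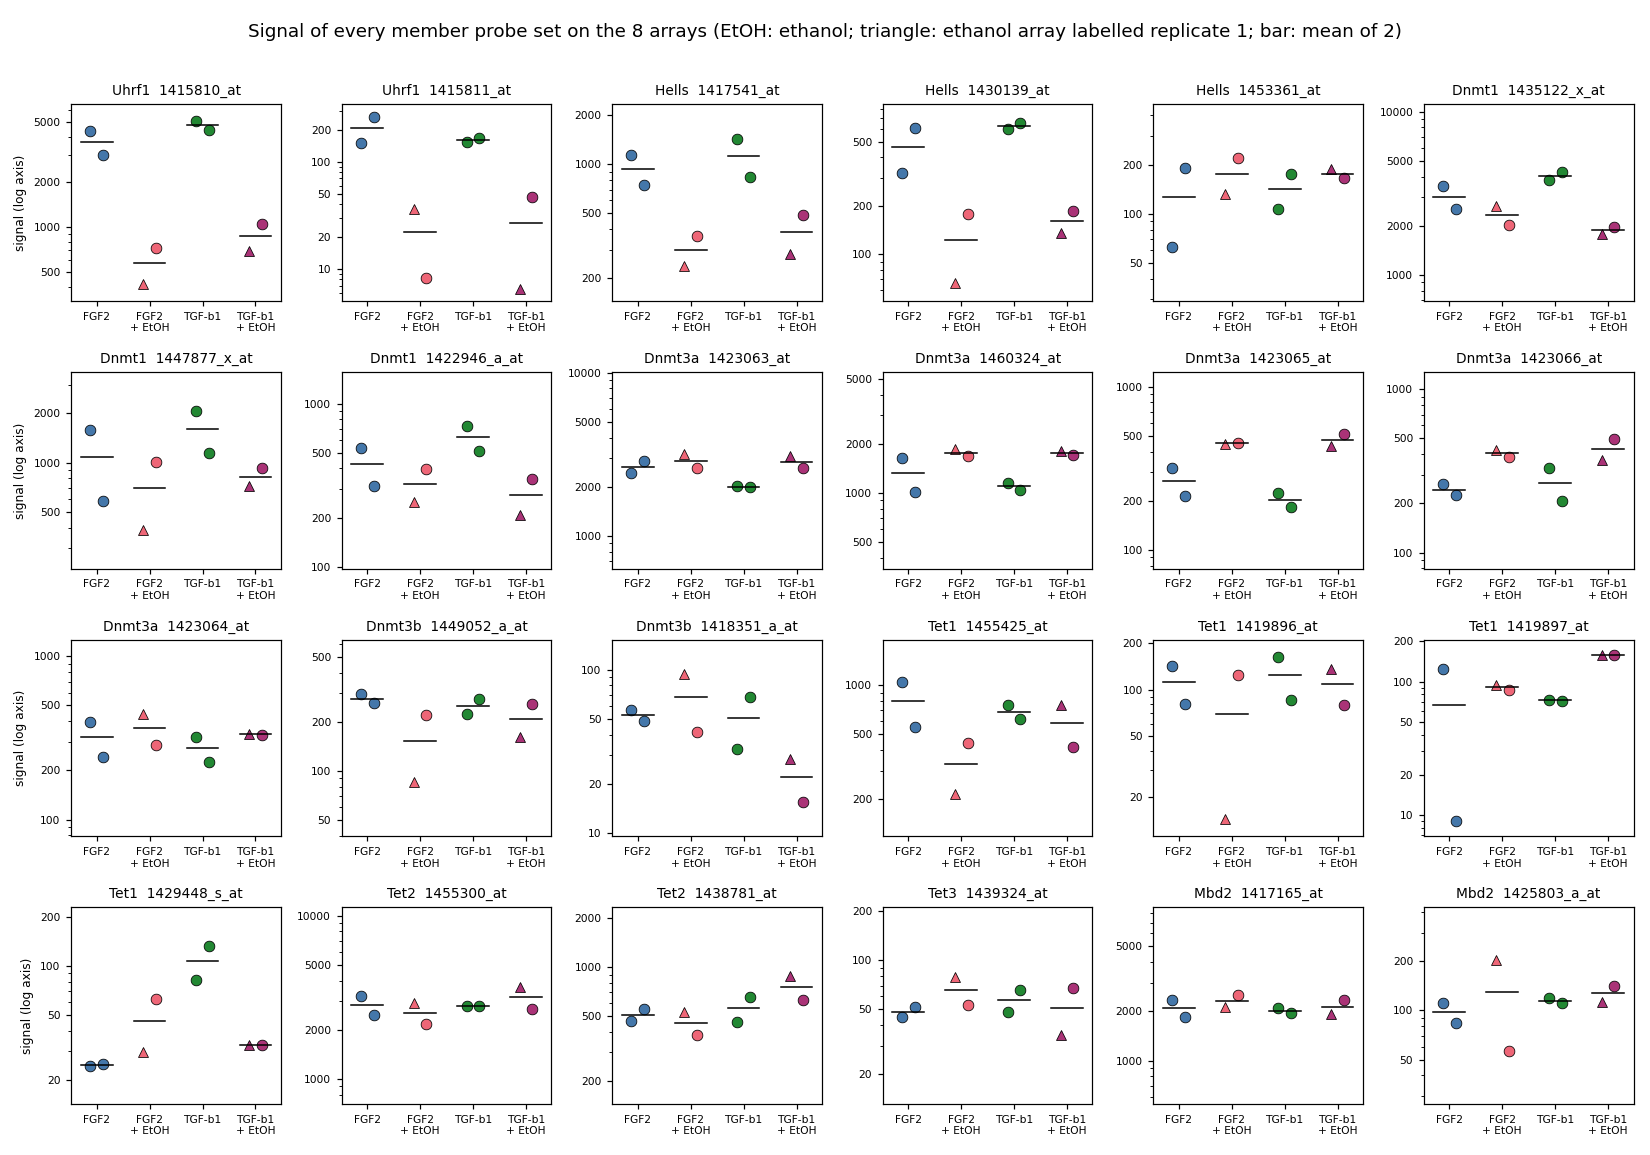
Linear signal (log axis) of all 24 member probe sets, 1 point per array, with bars at the mean of the 2 arrays of a group and triangles for the ethanol arrays labelled replicate 1; axes differ between panels. Both Uhrf1 probe sets and 2 of the 3 of Hells are lower on every ethanol array, 3 of the 5 of Dnmt3a are higher on every ethanol array, and the other 17 overlap.

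Uhrf1 (chromosome 17, 56303337 to 56323486, GRCm38.p6) showed the largest difference among the members. Its brighter probe set, 1415810_at, read 4349 and 3030 in FGF2, 418 and 727 in Ethanol and FGF2, 5062 and 4468 in TGF-beta1, and 693 and 1048 in Ethanol and TGF-beta1. Every ethanol array lay below every array without ethanol, and the highest with ethanol, at 1048, was well under the lowest without, at 3030. The log2 fold change was −2.56 ± 0.23 (SE; 95% interval −3.08 to −2.03; adjusted p = 0.00298), a 5.88-fold lower level. This and all other fold changes are on the log2(signal + 23.66) scale, which understates the change of dim probe sets. The second probe set, 1415811_at, was dimmer, with 150 and 265 in FGF2, 36.5 and 8.28 in Ethanol and FGF2, 152 and 168 in TGF-beta1, and 6.55 and 47.0 in Ethanol and TGF-beta1. It again had no overlap and gave −2.17 ± 0.39 (adjusted p = 0.0291), although 2 of its ethanol signals were under the added constant of 23.66, so that the fold change is shaped by that constant: with a constant of 100 it was −1.18 (adjusted p = 0.0194).

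The call of 1415810_at held when any single array was left out, and was lost without both ethanol arrays labelled replicate 1, where the log2 fold change was −2.22 with adjusted p = 0.0918 and 0 of all probe sets were past the threshold (2031 at an unadjusted p under 0.05). The call of 1415811_at was lost without FGF2 replicate 2 (−1.99, adjusted p = 0.0622), Ethanol and FGF2 replicate 1 (−2.40, 0.0625) or 2 (−1.94, 0.115), Ethanol and TGF-beta1 replicate 1 (−1.87, 0.124), TGF-beta1 replicate 1 (−2.20, 0.134) or 2 (−2.14, 0.117), and without both doubted arrays (−2.09, 0.201). Over all settings tried, both probe sets kept a negative sign.

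Hells (chromosome 19, 38930262 to 38970470) followed at smaller size. Probe set 1417541_at read 1133 and 748 in FGF2, 238 and 362 in Ethanol and FGF2, 1423 and 833 in TGF-beta1, and 282 and 488 in Ethanol and TGF-beta1. The groups did not overlap, with 488 the highest ethanol value and 748 the lowest of the others. The difference was −1.53 ± 0.28 (95% interval −2.15 to −0.92; adjusted p = 0.0312), or 2.89-fold lower. Probe set 1430139_at read 319 and 605 in FGF2, 66.8 and 179 in Ethanol and FGF2, 604 and 657 in TGF-beta1, and 136 and 186 in Ethanol and TGF-beta1, again without overlap, and gave −1.81 ± 0.32 (adjusted p = 0.0271). The third probe set of Hells, 1453361_at, went against these. It was dim, with 62.6 and 189 in FGF2, 132 and 219 in Ethanol and FGF2, 107 and 175 in TGF-beta1, and 187 and 165 in Ethanol and TGF-beta1, and its log2 fold change was 0.41 ± 0.34 (adjusted p = 0.786). The probe sets of Hells therefore disagree, and which transcript each one reads was not analysed here.

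Both Hells calls were close to the threshold. That of 1417541_at was lost with median centring (−1.66, adjusted p = 0.0773) and without a variance trend (−1.53, 0.0884), and that of 1430139_at without a variance trend (−1.81, 0.0639). Among single arrays, the call of 1417541_at was lost without FGF2 replicate 1 (−1.39, adjusted p = 0.112), Ethanol and FGF2 replicate 1 (−1.39, 0.125) or 2 (−1.67, 0.0678), Ethanol and TGF-beta1 replicate 1 (−1.35, 0.135), or TGF-beta1 replicate 1 (−1.34, 0.182). That of 1430139_at was lost without FGF2 replicate 2 (−1.59, 0.0546), Ethanol and FGF2 replicate 1 (−1.52, 0.0803), TGF-beta1 replicate 1 (−1.84, 0.131) or 2 (−1.78, 0.110), or Ethanol and TGF-beta1 replicate 1 (−1.71, 0.124) or 2 (−1.90, 0.0648). Without both doubted arrays the values were −1.21 (adjusted p = 0.336) and −1.42 (0.287). As a count, the 4 member calls became 3 without FGF2 replicate 1 or Ethanol and TGF-beta1 replicate 2, 2 without FGF2 replicate 2, Ethanol and FGF2 replicate 2 or TGF-beta1 replicate 2, and 1 without any of the other 3 arrays.

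Dnmt1 (chromosome 9, 20907206 to 20959888), the enzyme that Uhrf1 recruits, did not pass the test. Its brightest probe set, 1435122_x_at, read 3484 and 2526 in FGF2, 2646 and 2020 in Ethanol and FGF2, 3837 and 4292 in TGF-beta1, and 1792 and 1975 in Ethanol and TGF-beta1. By the labels, both ethanol arrays were below both others in TGF-beta1, whereas in FGF2 the values overlapped. This contrast rests on the doubted labels: with the ethanol arrays labelled replicate 1 exchanged, neither growth factor would show an overlap. The average was −0.73 ± 0.18 (95% interval −1.13 to −0.32; unadjusted p = 0.00259; adjusted p = 0.136). The other probe sets gave similar sizes with wider errors, −0.74 ± 0.28 for 1422946_a_at (adjusted p = 0.42) and −0.75 ± 0.38 for 1447877_x_at (adjusted p = 0.587). Probe set 1422946_a_at read 533 and 314 in FGF2, 249 and 395 in Ethanol and FGF2, 732 and 510 in TGF-beta1, and 207 and 346 in Ethanol and TGF-beta1. Probe set 1447877_x_at read 1584 and 583, 389 and 1002, 2070 and 1153, and 719 and 921 in the same order of groups. All 3 had a negative difference, and by their suffix both _x_at sets hold probes that can also match other transcripts. The interval of 1435122_x_at, −1.13 to −0.32, did not reach the value of Uhrf1, although the difference between the genes was not tested.

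Dnmt3a (chromosome 12, 3801559 to 3914443), which sets new marks, had positive differences on all 5 probe sets, none past the threshold. The largest was that of 1423065_at, which read 319 and 213 in FGF2, 447 and 449 in Ethanol and FGF2, 222 and 183 in TGF-beta1, and 434 and 514 in Ethanol and TGF-beta1. Every ethanol array was above every other array, and the log2 fold change was 0.93 ± 0.22 (95% interval 0.44 to 1.42; unadjusted p = 0.00176; adjusted p = 0.108). Probe set 1423066_at read 262 and 224, 424 and 385, 328 and 206, and 367 and 494 in the same order of groups, without overlap (0.67 ± 0.23, adjusted p = 0.349). Probe set 1460324_at read 1636 and 1019, 1855 and 1678, 1155 and 1042, and 1800 and 1713, also without overlap, though 1636 in FGF2 came near the ethanol values (0.56 ± 0.19, adjusted p = 0.356). The brightest Dnmt3a probe set, 1423063_at, overlapped between groups, with 2430 and 2857 in FGF2, 3169 and 2613 in Ethanol and FGF2, 2008 and 2006 in TGF-beta1, and 3074 and 2596 in Ethanol and TGF-beta1 (0.31 ± 0.16, adjusted p = 0.618). The fifth, 1423064_at, read 399 and 240, 442 and 284, 321 and 226, and 336 and 332 (0.24 ± 0.25, adjusted p = 0.84). The size thus ranged from 0.24 to 0.93 between probe sets of this gene, and the sign was positive under every setting tried.

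Dnmt3b (chromosome 2, 153649411 to 153687730), the other enzyme for new marks, was measured by a probe set of moderate and one of low signal. Probe set 1449052_a_at read 297 and 259 in FGF2, 85.4 and 220 in Ethanol and FGF2, 223 and 277 in TGF-beta1, and 161 and 256 in Ethanol and TGF-beta1, and its difference was −0.57 ± 0.30 (adjusted p = 0.614). The lowest value was on the array of Ethanol and FGF2 labelled replicate 1, and without both doubted arrays the difference was −0.13. Probe set 1418351_a_at read 56.7 and 48.3, 94.3 and 41.5, 32.5 and 67.9, and 28.5 and 15.4 in the same order of groups, close to the signal filter of 40.1 (−0.23 ± 0.35, adjusted p = 0.898). Ethanol and control arrays overlapped on both.

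**Figure D2:**
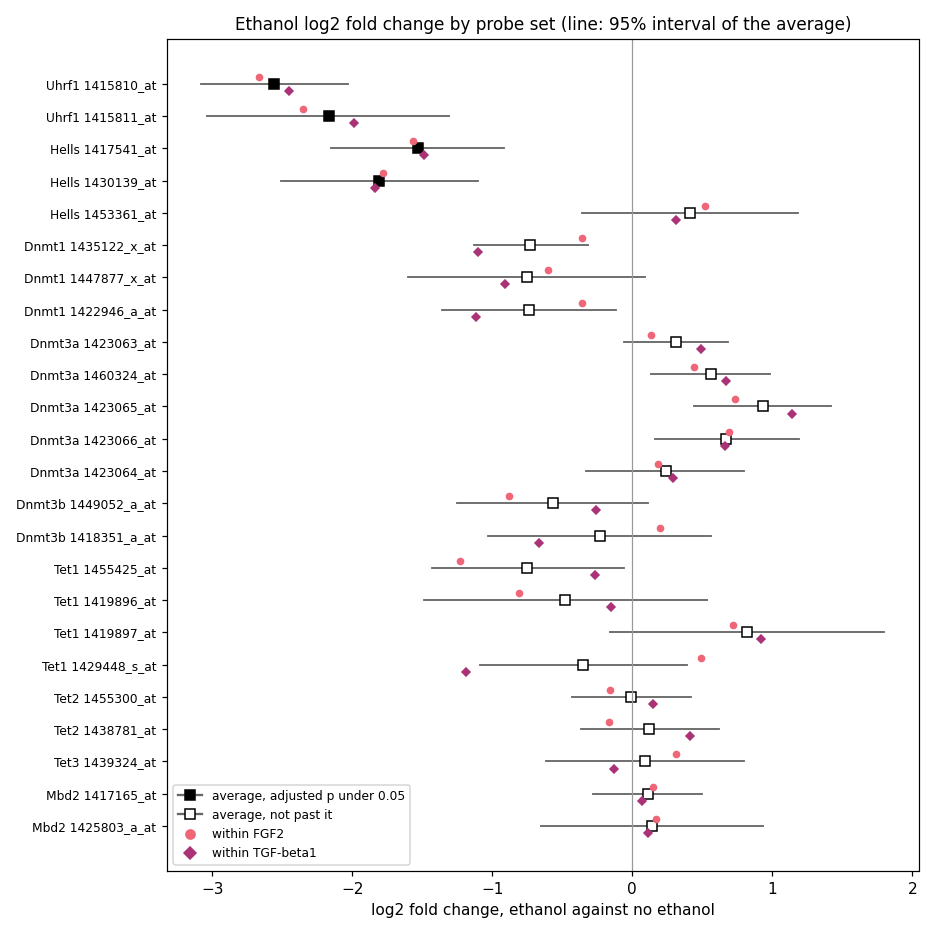
Log2 fold change with ethanol (x axis) for each of the 24 member probe sets (y axis), with squares for the average of both growth factors, lines for its 95% interval, circles within FGF2 and diamonds within TGF-beta1. The 4 filled squares, from −2.56 to −1.53, are past an adjusted p of 0.05, and the 5 Dnmt3a squares lie between 0.24 and 0.93.

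The Tet genes code for the dioxygenases of the demethylation path. Tet2 (chromosome 3, 133463677 to 133545136) showed no difference past the threshold. Its probe set 1455300_at read 3240 and 2455 in FGF2, 2932 and 2162 in Ethanol and FGF2, 2797 and 2814 in TGF-beta1, and 3642 and 2668 in Ethanol and TGF-beta1. The groups overlapped throughout, and the interval of the difference, −0.01 ± 0.19, ran from −0.43 to 0.42 on the log2 scale. Probe set 1438781_at read 471 and 553, 533 and 382, 463 and 660, and 880 and 625 in the same order of groups (0.12 ± 0.22, interval −0.37 to 0.62). For both, the sign depended on the setting.

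Tet1 (chromosome 10, 62804570 to 62887469) gave differences of both signs across its 4 probe sets. The brightest, 1455425_at, read 1040 and 557 in FGF2, 216 and 445 in Ethanol and FGF2, 751 and 619 in TGF-beta1, and 757 and 416 in Ethanol and TGF-beta1. By the labels, the ethanol arrays were lower in FGF2 and overlapped in TGF-beta1 (average −0.75 ± 0.31, interval −1.43 to −0.06, adjusted p = 0.479). With the ethanol arrays labelled replicate 1 exchanged, they would overlap in FGF2 and be lower in TGF-beta1. Probe set 1419896_at read 142 and 80.8, 14.3 and 125, 163 and 85.9, and 137 and 79.3 in the same order of groups (−0.48 ± 0.45), a difference that went to 0.01 without the Ethanol and FGF2 array labelled replicate 1. Probe set 1419897_at read 123 and 8.94, 94.5 and 86.4, 72.3 and 71.9, and 159 and 157 (0.82 ± 0.44, adjusted p = 0.614), with 0.28 when FGF2 replicate 2 was left out and 1.36 when FGF2 replicate 1 was. Probe set 1429448_s_at, whose suffix marks probes shared with other transcripts, read 24.5 and 24.9, 29.6 and 62.8, 82.4 and 133, and 33.0 and 32.6 (−0.35 ± 0.33, adjusted p = 0.815). The probe sets of Tet1 disagreed, and none passed the test.

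Tet3 (chromosome 6, 83362373 to 83457208) had 1 dim probe set, 1439324_at, with 45.0 and 51.5 in FGF2, 79.2 and 53.0 in Ethanol and FGF2, 48.2 and 65.7 in TGF-beta1, and 35.0 and 67.3 in Ethanol and TGF-beta1. The values overlapped, and the difference was 0.09 ± 0.32 (interval −0.62 to 0.80), with a sign that changed between settings.

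Mbd2 (chromosome 18, 70568225 to 70629134), the reader among the members, showed no difference past the threshold. Probe set 1417165_at read 2352 and 1858 in FGF2, 2125 and 2523 in Ethanol and FGF2, 2091 and 1947 in TGF-beta1, and 1916 and 2358 in Ethanol and TGF-beta1. The 8 values stayed between 1858 and 2523, and the interval of the difference, 0.11 ± 0.17, ran from −0.28 to 0.50. Probe set 1425803_a_at read 111 and 83.5, 204 and 56.1, 119 and 111, and 112 and 142 in the same order of groups (0.14 ± 0.35, interval −0.65 to 0.93).

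Genes of cell division moved with the same arrays. Of 15 proliferation genes on the array, 14 fell in the average, with a median log2 fold change of −3.37, and of 20 S phase genes 15 fell, with a median of −1.58. Mki67, a marker of cycling cells, gave −2.67 ± 0.26 (adjusted p = 0.00298) and Top2a, a mitotic topoisomerase, −3.01 ± 0.30. Relative to the mean of the 4 arrays without ethanol, and by the probe set of highest mean signal of each member (1415810_at, 1417541_at, 1435122_x_at and 1455300_at), the mean of the proliferation list lay between −3.53 and −2.43 on the ethanol arrays, that of the S phase list between −1.84 and −1.23, Uhrf1 between −3.24 and −1.96, and Hells between −1.97 and −1.0. In the proliferation list Ethanol and FGF2 replicate 1 was the lowest ethanol array, at −3.53, and Ethanol and TGF-beta1 replicate 2 the highest, at −2.43, as for these probe sets of Uhrf1 and Hells. FGF2 replicate 2 was the lowest array without ethanol for the list, at −1.21, and for both probe sets, at −0.45 and −0.41. The other called probe sets had another order: Uhrf1 1415811_at was lowest on Ethanol and TGF-beta1 replicate 1, at −2.75, with FGF2 replicate 2 highest, at 0.51, and Hells 1430139_at had FGF2 replicate 1 as the lowest array without ethanol, at −0.68, with replicate 2 at 0.19. Dnmt1 lay from −0.94 to −0.39 on the ethanol arrays by 1435122_x_at, from −1.59 to −0.28 by 1447877_x_at and from −1.18 to −0.33 by 1422946_a_at. Dnmt3a 1423065_at, taken because its difference was the largest of that gene, lay from 0.85 to 1.09, and Tet2 from −0.38 to 0.37. The part of the cell division genes in the results on Uhrf1 and Hells was not tested.

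**Figure D3:**
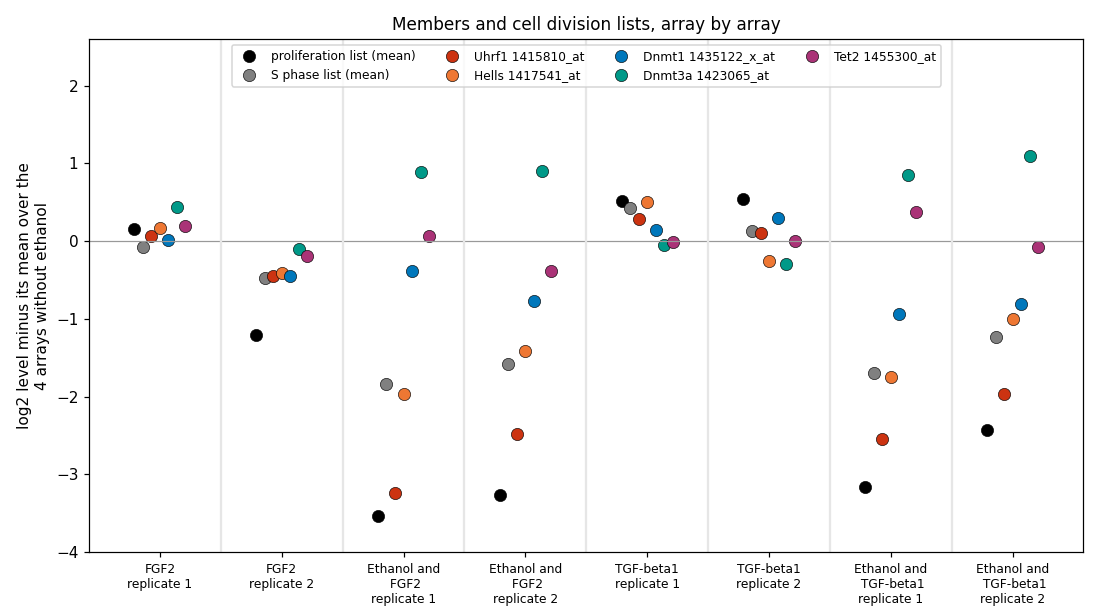
Log2 level on each of the 8 arrays minus the mean of the 4 arrays without ethanol (y axis), for the mean of the proliferation and S phase lists and for 1 probe set each of Uhrf1, Hells, Dnmt1, Dnmt3a and Tet2. On the ethanol arrays Uhrf1 lies from −3.24 to −1.96, the proliferation list from −3.53 to −2.43, the S phase list from −1.84 to −1.23, and Dnmt3a from 0.85 to 1.09.

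Over the 8 arrays, the genes most like Uhrf1 by Pearson correlation of log2 levels were Aspm (0.993), Pbk (0.992) and Dtl (0.992). Those most like Hells were Cdt1 (0.988), Rpa2 (0.987) and Mcm5 (0.986), and those most like Dnmt1 were Cenpp (0.989), Zranb3 (0.986) and Cep57l1 (0.984). Among the members, each by its brightest probe set, Uhrf1 correlated at 0.971 with Hells, 0.792 with Dnmt1, 0.748 with Dnmt3b and 0.707 with Tet1. It correlated at −0.794 with Dnmt3a, 0.007 with Tet2, −0.229 with Tet3 and −0.24 with Mbd2. These are descriptions over 8 arrays that share 4 groups, so any genes that differ with ethanol correlate.

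Each growth factor was then read on its own. Within FGF2, 0 member probe sets passed, as did 0% of all probe sets (limma; 6 members and 1998 probe sets at an unadjusted p under 0.05). Uhrf1 1415810_at gave −2.67 ± 0.33 there (adjusted p = 0.073) and passed when FGF2 replicate 2 was left out (−2.92, adjusted p = 0.019), as did 111 probe sets in all. Hells gave −1.57 and −1.78 on its brighter probe sets. Within TGF-beta1, 1 member probe set fell and 0 rose, against 0.407% and 0.0296% of all probe sets. It was Uhrf1 1415810_at, at −2.45 ± 0.33 (95% interval −3.19 to −1.71; adjusted p = 0.0228). The call was lost without either array of Ethanol and FGF2 (adjusted p = 0.0547 and 0.0558 for replicates 1 and 2), of TGF-beta1 (0.299 and 0.186) or of Ethanol and TGF-beta1 (0.281 and 0.0671), where the log2 fold change ran from −2.74 to −2.16. Hells gave −1.49 (adjusted p = 0.23) and −1.84 (0.183) in TGF-beta1. Without both doubted arrays Uhrf1 read −2.28 within FGF2 (adjusted p = 0.565) and −2.16 within TGF-beta1 (0.401).

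The difference between the growth factors in the ethanol effect was tested itself, and 0 member probe sets and 0% of all passed (limma; 1 member and 1110 probe sets at an unadjusted p under 0.05, smallest adjusted p = 0.902). For Uhrf1 1415810_at the ethanol effect in TGF-beta1 minus that in FGF2 was 0.22 ± 0.47 (95% interval −0.83 to 1.27), and for Hells 1417541_at 0.08 ± 0.55 (−1.15 to 1.31), intervals that leave room for differences of more than 2-fold. For Dnmt1, 1435122_x_at read −0.36 within FGF2 and −1.10 within TGF-beta1, a difference of −0.74 ± 0.36 (−1.55 to 0.07; adjusted p = 0.902), which was −0.48 without both doubted arrays. Tet1 1429448_s_at was the 1 member under the unadjusted threshold, at 0.49 within FGF2 and −1.19 within TGF-beta1, a difference of −1.68 ± 0.66 (adjusted p = 0.902). Tet1 1455425_at, the brightest of that gene, went the other way, with −1.23 within FGF2 and −0.27 within TGF-beta1.

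Without ethanol, TGF-beta1 against FGF2 gave 0 member calls and 0% of all probe sets (limma; 1 member and 1009 probe sets at an unadjusted p under 0.05). The median of the 24 differences was 0.12 against −0.02 over all. The 3 Dnmt1 probe sets were at 0.45 to 0.67, the 3 of Hells at 0.24 to 0.49, and 4 of the 5 of Dnmt3a below 0, down to −0.39, all with adjusted p = 1. Uhrf1 read 0.39 ± 0.33 and −0.28 ± 0.55 on its probe sets. All 15 proliferation genes were above 0 here, with a median of 1.0, as were 19 of 20 S phase genes, with a median of 0.62. Of both lists, 0 passed. Relative to the mean of the arrays without ethanol, the proliferation list lay at 0.15 on FGF2 replicate 1 but at −1.21 on replicate 2. Its part in the member differences was not tested. The 1 member under the unadjusted threshold was again Tet1 1429448_s_at, at 1.41 ± 0.47 (95% interval 0.37 to 2.46; unadjusted p = 0.0131), on signals of 24.5 and 24.9 in the FGF2 group against 82.4 and 133 with TGF-beta1. This comparison shares its arrays without ethanol with the interaction, so these results are not independent.

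The rest of the pathway was read from 4 lists of 44 genes, of which 38 had a probe set with 1 symbol and 36 were tested, each by its brightest probe set. In the average, 2 fell and 0 rose, 22 were below 0 and 14 above, and the median was −0.14 against 0.06 over all probe sets. In the other comparisons 0 of the 36 passed. Both that fell stood among the 11 cofactors and partners and also on the S phase list. Lig1, the ligase that seals Okazaki fragments and is a partner of Uhrf1, read 709 and 426 in FGF2, 190 and 127 in Ethanol and FGF2, 1126 and 895 in TGF-beta1, and 145 and 291 in Ethanol and TGF-beta1, without overlap (−1.92 ± 0.28, adjusted p = 0.0105). Pcna, the sliding clamp that binds Dnmt1 at the fork, read 5690 and 6383, 4735 and 3093, 8560 and 9149, and 2850 and 4016 in the same order (−1.02 ± 0.20, adjusted p = 0.0469). The Lig1 call was lost without Ethanol and FGF2 replicate 2 (−1.79, adjusted p = 0.0575) or TGF-beta1 replicate 1 (−1.84, 0.0804). That of Pcna was kept under single omissions only without Ethanol and FGF2 replicate 1, and its adjusted p reached 0.218. It was also lost with no filter (adjusted p = 0.0505), without a variance trend (0.154) and in an additive model (0.0577), and was past the threshold in 7 of 19 settings. Without both doubted arrays they read −1.82 (0.133) and −1.05 (0.163).

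Of the 7 readers tested, 0 passed, with a median of 0.08. Uhrf2, the paralog of Uhrf1, gave −0.41 ± 0.25 (adjusted p = 0.676), Mbd1 0.10 ± 0.17, Mbd3, a subunit of the NuRD complex, −0.43 ± 0.22, and Mbd4, a glycosylase that binds methylated CpG, −0.33 ± 0.31. Of the 13 genes of demethylation and base excision repair, 0 passed, with a median of 0.13. Gadd45g, of a stress-induced family tied to demethylation, gave 0.74 ± 0.34, Gadd45a 0.63 ± 0.52 and Gadd45b 0.43 ± 0.65. Their spread followed the doubted arrays: Gadd45a read 3029 and 509 in Ethanol and FGF2, against 560 and 1700 in Ethanol and TGF-beta1, where Gadd45b read 1097 and 124 against 150 and 692. Idh1, which makes the cosubstrate of the Tet enzymes, gave 0.13 ± 0.18. All 5 methyl donor genes tested were below 0, with a median of −0.36, and 0 passed. Dnmt3l, the partner of the Dnmt3 enzymes that lacks catalytic activity, lay below the filter on low signals.

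**Figure D4:**
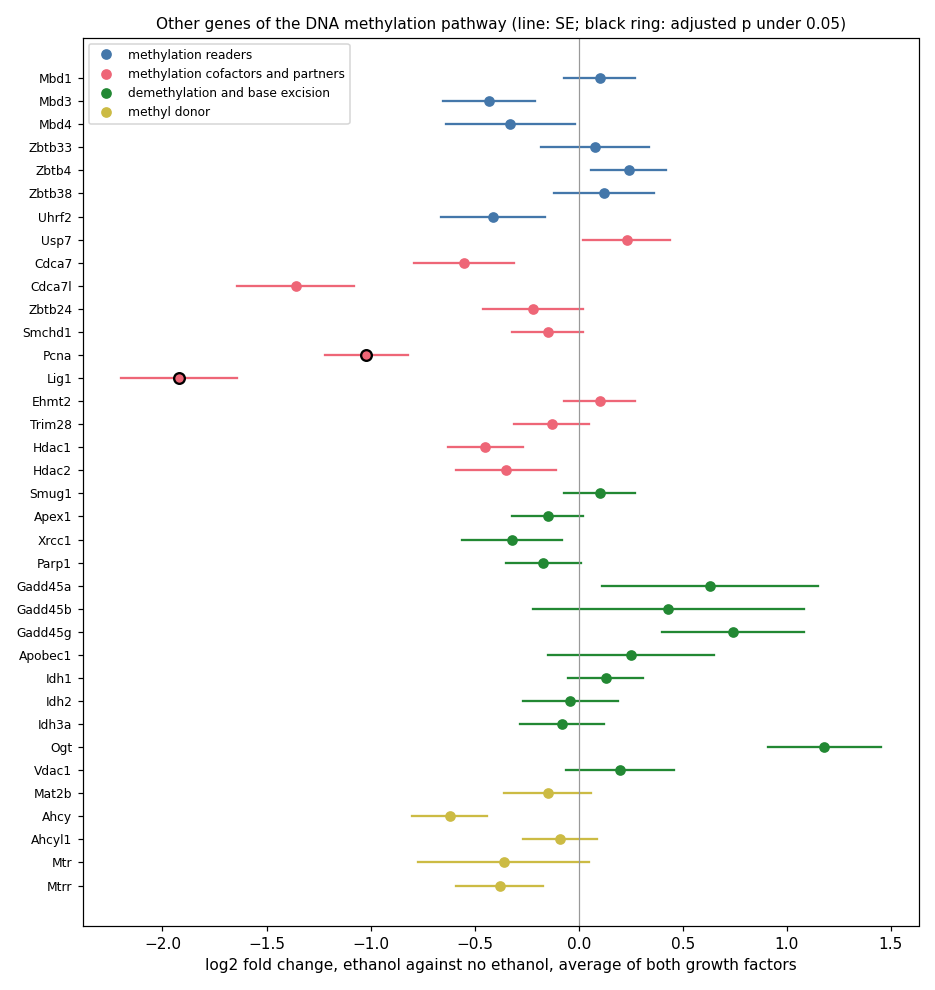
Log2 fold change with ethanol, average of both growth factors (x axis), for the 36 tested genes of the 4 pathway lists (y axis), coloured by list, with lines for the SE and black rings for an adjusted p under 0.05. Lig1 at −1.92 and Pcna at −1.02 carry rings, and the 7 readers lie between −0.43 and 0.24.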

How the data were processed

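Affymetrix signals of 8 arrays (4 groups of 2) were analysed. Per the submitters' processing notes the values came from MAS5 and GCOS, with versions not given in the sources used here; each value as deposited is a linear intensity (the signal of a probe set on an array), with no detection call, and the number of arrays limits the precision. All columns could be mapped. Of 45101 probe sets, 64 were controls, 34945 of the rest had 1 symbol, 932 several and 9160 none. Symbols came from the platform annotation and positions and promoters from RefSeq (GRCm38.p6). Signals were transformed as log2(signal + 23.66), the 25th percentile of all signals, and the 27022 probe sets above the 40th percentile of mean level (about 40.1 in signal) entered a limma fit (limma 3.58.1, R 4.3.3): 4 group means, a variance trend, 4 residual and 5.69 prior degrees of freedom, two-sided p, Benjamini-Hochberg adjustment within each of 5 comparisons. The fit was tested on simulated data with independent noise and the groups as labelled. These data held neither exchanged labels nor a shared replicate effect, so the simulation does not bear on either. TGF-beta1 against FGF2 with ethanol was not tested, since both groups hold a doubted array.

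All members were named, with, from the pathway lists, genes past the threshold and preset others; Tdg and Mat2a had no probe set with 1 symbol, and 1 preset gene is not reported here. Members, lists and tests were chosen with earlier results of these data known. Alternatives covered the constant, filter, normalization, centring, probe set choice, variance model, replicate block and omitted arrays.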

Additional observations from a re-analysis of the deposited data

How the results depend on the processing

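With 2 arrays a group, the spread came from all groups together. The 4 member calls of the ethanol average became 2 with 1 probe set per gene (8 members tested), 2 without a variance trend (both Uhrf1; both Hells calls were lost), 0 without both ethanol arrays labelled replicate 1 (limma; 7 members at an unadjusted p under 0.05), and 1 to 3 when single arrays were left out. Within FGF2 the count of 0 became 1 without the filter and 0 to 1 with single arrays left out. Within TGF-beta1 the 1 call became 0 without a variance trend, 0 without both doubted arrays and 0 to 1 with single arrays left out. Over all probe sets the 285 calls of the average ranged from 112 (without TGF-beta1 replicate 1) to 381 (without FGF2 replicate 2), beside 0 without both doubted arrays; the 118 within TGF-beta1 ranged from 0 to 222, and the 0 within FGF2 up to 111. Median centring moved all differences of the average by −0.13. The share of member promoters with a motif was 46.2% with the shorter core, a shorter search string.

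Whether replicate numbers pair the arrays was not settled. Deviations of the replicate 1 arrays correlated at 0.54 between FGF2 and TGF-beta1, −0.29 between the ethanol groups and −0.10 to 0.04 otherwise. All but the 0.54 involve a doubted array, so they cannot decide it. Without ethanol, median signals were 50.7 (FGF2) and 50.6 (TGF-beta1) on replicate 1, against 86.5 and 80.7 on replicate 2. The main fit held no term for the replicate. With the replicate block the TGF-beta1 count of members was 0 and Hells 1417541_at had −1.53 (adjusted p = 0.0583).

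Of 717 recomputed values, 643 kept direction and side of the threshold, 51 lost and 3 gained the call, and 20 changed sign, none of them past the threshold. Median centring gave −0.02 for Mbd2 1417165_at, −0.01 for Tet2 1438781_at, −0.04 for Tet3 and −0.03 for Mbd1. Quantile normalization gave −0.04 for Tet3 and 0.01 for Tet2 1455300_at. Without Ethanol and FGF2 replicate 1, Tet1 1419896_at read 0.01, Mbd2 1425803_a_at −0.24, Tet3 −0.02, Gadd45a 0.00 and Gadd45b −0.31. Without Ethanol and FGF2 replicate 2, Tet2 1455300_at read 0.10. Without Ethanol and TGF-beta1 replicate 2, Tet3 read −0.07, Tet2 1455300_at 0.11 and Gadd45b −0.09. Without FGF2 replicate 1, Tet2 1455300_at read 0.09 and Mbd4 0.01, and without TGF-beta1 replicate 1, Tet2 1438781_at 0.00. Without both doubted arrays, Mbd2 1425803_a_at read −0.17 and Tet2 1438781_at −0.11. Over the omissions, Tet1 1419896_at ranged from −0.97 to 0.01, Mbd2 1425803_a_at from −0.24 to 0.52, Tet2 1438781_at from −0.11 to 0.24, Tet2 1455300_at from −0.23 to 0.11, Tet3 from −0.07 to 0.24, Mbd4 from −0.67 to 0.01, Gadd45a from 0.00 to 1.26 and Gadd45b from −0.31 to 1.16. Where not evident from fewer arrays or genes, the cause was not tested.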

Other observations

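A pair of pathway genes, chosen after their values were seen, had the largest differences among those that missed the threshold in the ethanol average. Cdca7l, a paralog of the Hells partner Cdca7, gave −1.36 ± 0.28 (limma, adjusted p = 0.0616) and passed under 3 of 19 alternative settings. Ogt, the enzyme that adds O-GlcNAc and binds Tet proteins, gave 1.18 ± 0.27 (adjusted p = 0.103) and passed under 0.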
